A study of Cricetiscus sungorus with 12 samples.

Results

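The genes described here mark 2 kinds of glia of the hypothalamus, tanycytes and astrocytes. They are 10 genes listed by name, out of the 17191 mouse GeneIDs to which hamster transcripts were assigned. *Vim* (GeneID 22352), *Nes* (18008) and *Rax* (19434) stand for tanycytes. *Gfap* (14580), *Aqp4* (11829), *Slc1a2* (20511), *Slc1a3* (20512), *S100b* (20203), *Aldh1l1* (107747) and *Glul* (14645) stand for astrocytes. Each of the 10 had reads in all 12 hamsters, and all passed the filter on low counts in every comparison.

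Hypothalamic poly(A) RNA of 12 adult Djungarian hamsters from an indoor colony was sequenced, 1 library per animal. LP-NT hamsters (n = 4, 2 labelled male and 2 female) were kept with 16 h of light per day and were normothermic. SP-NT hamsters (n = 4, 2 males and 2 females) had been moved to 8 h of light per day and were normothermic at sampling. SP-HT hamsters (n = 4, 3 males and 1 female) had the same short photoperiod and were sampled in spontaneous daily torpor, a daily bout of lowered metabolism and body temperature. All groups were sampled at ZT 4, that is 4 h after lights on. By the methods, the SP hamsters carried a temperature transmitter in the abdomen and had all used torpor before, whereas the LP hamsters carried none, so that implant and photoperiod cannot be told apart. SP-NT against LP-NT asks what photoperiod changes, SP-HT against SP-NT asks what torpor changes, and SP-HT against LP-NT sets winter torpor beside summer normothermia. The 3 comparisons share their samples and are not independent of each other. Which hamsters are SP-HT and which SP-NT was taken from the labels alone. The values through which gene names were attached carry the same sign as the labels for photoperiod and the opposite sign for torpor. The difference for torpor was not resolved. Every direction between SP-HT and SP-NT, and every assignment of a value to either group, therefore holds only as far as these labels do.

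The estimated counts summed to between 20204979 and 24186918 per library. No 2 libraries of a group agreed within sampling noise, with a chi-square divided by its degrees of freedom of 6.79 to 37.7 in the 18 pairs. In 1 library, SP-NT 19, the counts went against the label: 3 records with 163 to 1699 counts in each of the 6 other males had at most 1 count in this hamster, which is labelled male. Without it, 0 of the 10 genes passed for photoperiod or torpor in edgeR, as with it. Further values without it are given for *Vim*, *Nes* and *Rax*, and for any other of the 10 whose log2(FC) turned sign or moved by over 1.5 times. Of a list of 10 hypothalamic genes, 4 could be named, the peptide genes *Avp*, *Pomc*, *Trh* and *Sst*. Only genes past the filter on low counts could be named, so their presence does not test the tissue label. All 4 had counts in all 12 hamsters, with a summed level of 268 to 419 CPM (normalised counts, scaled to a common library size) in LP-NT, 253 to 429 CPM in SP-NT and 185 to 292 CPM in SP-HT.

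Tanycytes are elongated glial cells in the floor and lower walls of the third ventricle. Their processes reach into the arcuate nucleus and the median eminence, and in seasonal mammals they read out the photoperiodic signal of the pars tuberalis by converting thyroid hormone. They keep features of the radial glia of the embryo, among them the intermediate filament proteins vimentin (*Vim*) and nestin (*Nes*), and they depend on the homeobox factor *Rax*, which in the adult brain is largely limited to them. Astrocytes fill the whole hypothalamus. They take up glutamate through *Slc1a2* (GLT-1) and *Slc1a3* (GLAST), turn it into glutamine with glutamine synthetase (*Glul*), and hold the water channel *Aqp4* at their endfeet on blood vessels. Several of these genes are shared, since tanycytes can also express *Slc1a3* and *Gfap*, and astrocytes can express *Vim*.

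The levels of the 10 genes reached from among the highest of the hypothalamic transcriptome down to a mean level above only 16.4% of all GeneIDs. On the TPM scale, which takes transcript length into account and allows genes to be compared, *Glul* had the highest mean level of the 10, 1277 ± 79.2 TPM (SD, n = 12 hamsters), above 99.7% of all GeneIDs. *Slc1a3* followed with 493 ± 32.9 TPM and *Slc1a2* with 379 ± 82.2 TPM. A middle tier was formed by *Gfap* at 121 ± 23.7 TPM, *Aqp4* at 120.4 ± 17.7 TPM and *Vim* at 94.5 ± 23.6 TPM.

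The order of these levels was not equally firm everywhere. *Gfap* and *Aqp4* could not be ranked, since *Gfap* was below *Aqp4* in 7 of 12 hamsters, and *Aqp4* was below *Vim* in 2 of 12. *Aldh1l1* was at 25.3 ± 1.99 TPM, *Nes* at 7.68 ± 1.87 TPM, *S100b* at 4.47 ± 3.37 TPM and *Rax* at 1.58 ± 1.03 TPM (SD, n = 12 each). *Nes* was below *S100b* in 2 hamsters and *S100b* below *Rax* in 4, while the other neighbours kept their order in all 12. *Rax*, the gene most particular to tanycytes by its known expression, thus rested on the fewest reads, 6 to 74 per hamster.

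**Figure D1:**
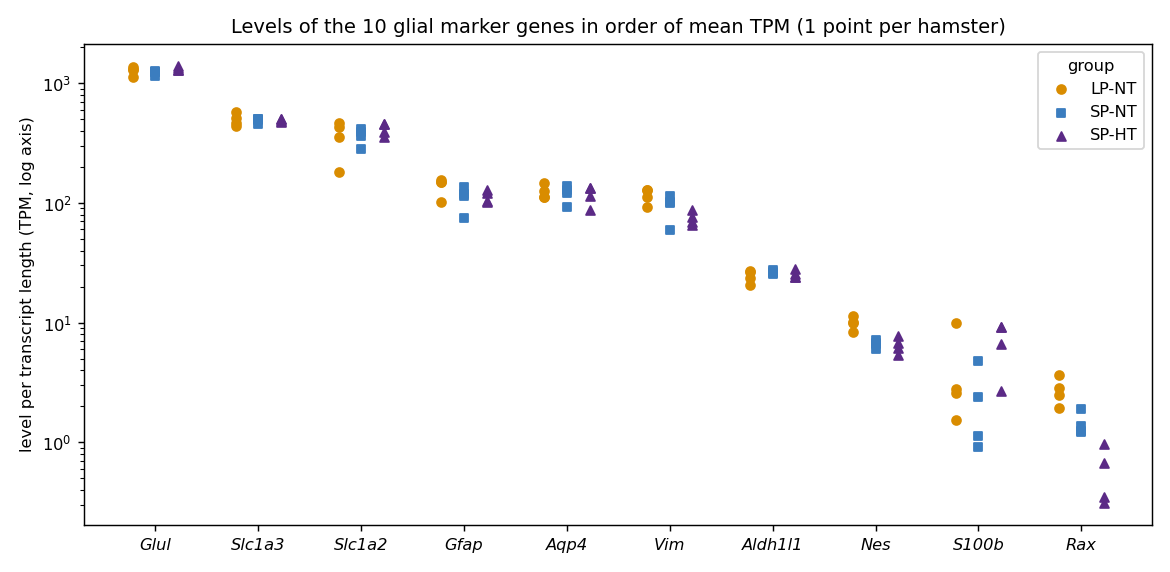
Deposited TPM of each gene (log axis) in each of the 12 hamsters, 1 point per hamster, with genes in order of mean TPM and groups as circles (LP-NT), squares (SP-NT) and triangles (SP-HT). The points of *Glul* lie between 1121 and 1399 TPM, those of *Rax* between 0.31 and 3.66 TPM, where the 3 groups occupy separate ranges.

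In the comparison of photoperiods, none of the 10 genes passed the test. In the quasi-likelihood test of edgeR, adjusted by Benjamini-Hochberg over all genes, 0 of 10 had an adjusted p under 0.05, against 0.0370% of all 16199 genes tested. At an unadjusted p under 0.05 there were 2 (*Nes* and *Rax*), against 4.84% of all genes. DESeq2 called 1 of the 10 (*Nes*), against 0.204% of all genes, and limma voom called 0, against 0.0309%. The groups did not overlap for 2 genes, both lower in SP-NT. Over all genes 3.44% did not overlap, 1.72% with SP-NT lower. The log2(FC) was below 0 for all 10 genes, with a median of -0.20 beside -0.002 over all genes. *Aldh1l1* and *Slc1a2*, both at -0.007, were close to 0 and changed sign in 11 and 7 of 18 other settings. The median was -0.56 for *Vim*, *Nes* and *Rax* and -0.08 for the 7 astrocyte genes.

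In torpor, likewise, 0 of 10 genes had an adjusted p under 0.05 in edgeR, against 2.40% of all 16195 genes. The unadjusted p was under 0.05 for 3 (*Rax*, *S100b* and *Glul*), against 18.4% of all genes. DESeq2 called 1 (*Glul*), against 6.28% of all genes, and limma voom called 0, against 2.38%. SP-HT and SP-NT did not overlap for 2 genes, *Rax* (lower in the hamsters labelled SP-HT) and *Glul* (higher). Over all genes 12.1% did not overlap, 7.39% lower and 4.74% higher. The median log2(FC) of the 10 genes was 0.04, beside -0.003 over all genes, and 4 values were below 0.

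Between SP-HT and LP-NT, 2 of 10 genes passed, *Rax* and *Vim*, and both fell. Over all 16157 genes 1.37% passed in edgeR, and 1.02% fell. The unadjusted p was under 0.05 for 3 genes (15.1% of all genes), DESeq2 called 3 (4.37%) and limma voom 2 (1.25%). *Rax*, *Nes* and *Vim* were lower in SP-HT without overlap. Over all genes 10.6% did not overlap, 6.83% with SP-HT lower. None of the 7 astrocyte genes passed in any of the 3 comparisons in edgeR, and their median log2(FC) was -0.08 for photoperiod, 0.11 for torpor and 0.03 for both together.

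**Figure D2:**
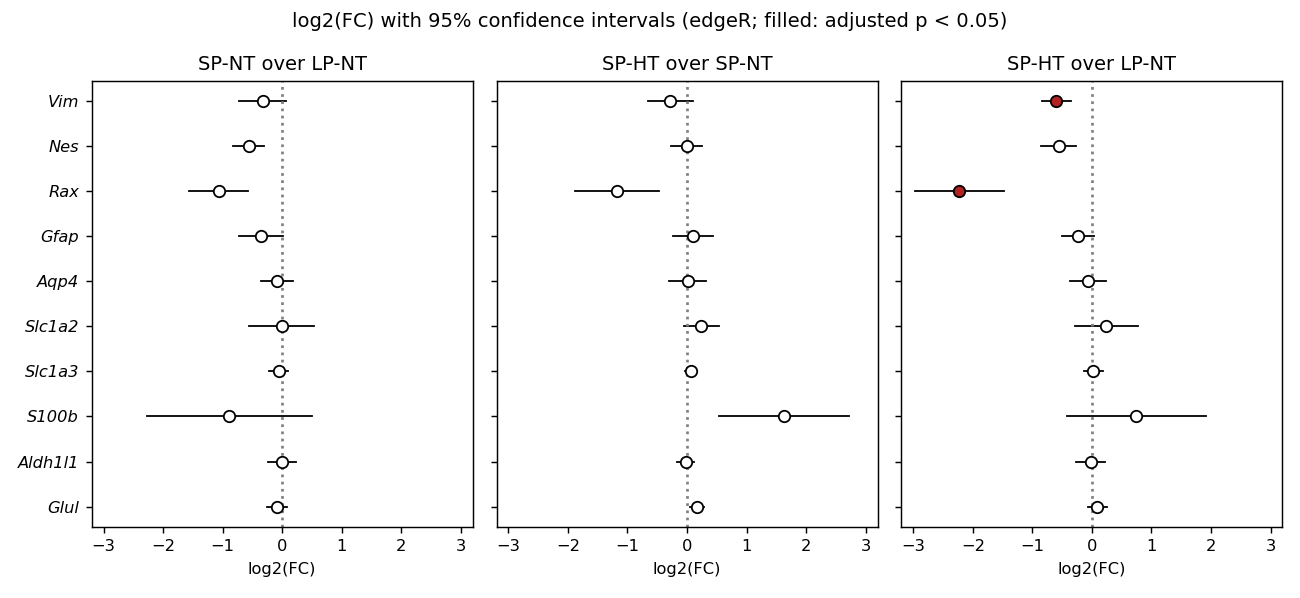
log2(FC) of each gene with its 95% confidence interval from edgeR in the 3 comparisons (left, SP-NT over LP-NT; middle, SP-HT over SP-NT; right, SP-HT over LP-NT), 4 hamsters per group, filled where the adjusted p is under 0.05. Only *Vim* and *Rax* in the right panel are filled, and *S100b* has the widest interval in each panel.

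*Rax*, the homeobox factor of tanycytes, was the gene of the 10 whose groups separated in every comparison. The normalised counts were 3.35, 2.21, 2.50 and 1.74 CPM in LP-NT 01, 02, 03 and 05. They were 1.19, 1.12, 1.08 and 1.29 CPM in SP-NT 19, 36, 37 and 38, and 0.613, 0.289, 0.329 and 0.833 CPM in SP-HT 02, 10, 26 and 33. Every LP-NT hamster was above every SP-NT hamster, and every SP-NT hamster was above every SP-HT hamster.

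The fall of *Rax* from LP-NT to SP-HT was 4.68-fold, with a log2(FC) of -2.23 ± 0.341 (SE, 95% interval -2.98 to -1.48, n = 4 per group, adjusted p = 0.0147). Of the steps in between, SP-NT over LP-NT had a log2(FC) of -1.06 ± 0.223 (SE, n = 4 per group, adjusted p = 0.467 in edgeR). SP-HT over SP-NT had a log2(FC) of -1.18 ± 0.317 (SE, n = 4 per group, adjusted p = 0.0814 in edgeR). Neither step passed on its own, and since both use the SP-NT hamsters they are not separate evidence. In tissue RNA of this kind, fewer tanycytes and less *Rax* RNA per tanycyte cannot be told apart.

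*Rax* had few reads. They summed to 218 in LP-NT (95% Poisson interval 190 to 249, counting error only), to 113 in SP-NT (93.1 to 136) and to 44 in SP-HT (32.0 to 59.1). The pooled intervals do not touch, but they leave out the spread between hamsters and are no test of the groups. The call between SP-HT and LP-NT was lost without SP-HT 10 (adjusted p = 0.0519 in edgeR) and without SP-HT 26 (0.0561), the 2 hamsters with the fewest reads, at log2(FC) of -2.03 and -2.06. For torpor, *Rax* passed without SP-HT 33, the highest of its group (log2(FC) -1.49, adjusted p = 0.0437 in edgeR), and was at -1.17 with an adjusted p of 0.160 without SP-NT 19. For photoperiod it was at -1.07 with an adjusted p of 0.909 without SP-NT 19.

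The length assigned to *Rax* differed in a single hamster. Its effective length was 1921 bases in SP-NT 38 and between 2390 and 2500 bases in the other 11. On the TPM scale, which uses that length, the ranges were 1.94 to 3.66 TPM in LP-NT, 1.22 to 1.89 TPM in SP-NT and 0.31 to 0.96 TPM in SP-HT, and still did not overlap. *Rax* is the gene of the tanycyte trio with the largest difference on either scale.

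*Nes* encodes nestin, the intermediate filament of neural progenitors, which tanycytes keep in the adult. Its normalised counts were 14.4, 20.1, 17.9 and 18.6 CPM in LP-NT 01, 02, 03 and 05, and 13.3, 12.7, 11.3 and 10.9 CPM in SP-NT 19, 36, 37 and 38. They were 10.4, 14.2, 11.0 and 12.5 CPM in SP-HT 02, 10, 26 and 33. All 8 SP hamsters were below all 4 LP hamsters, and the SP groups lay on top of each other. The share of all genes split between LP and SP in this way was not counted.

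The log2(FC) of *Nes* was -0.56 ± 0.117 (SE, n = 4 per group) for SP-NT over LP-NT, a ratio of 0.679, and the call depended on the tool. The adjusted p was 0.467 in edgeR, 0.527 in limma voom and 0.0124 in DESeq2. SP-HT over LP-NT gave -0.56 ± 0.135 (SE, n = 4 per group, adjusted p = 0.0761 in edgeR, 0.00845 in DESeq2). SP-HT over SP-NT gave -0.01 ± 0.117 (SE, n = 4 per group, adjusted p = 0.987 in edgeR), with a 95% interval of -0.26 to 0.25. As ratios, this interval runs from 0.834 to 1.19.

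*Nes* was also sensitive to LP-NT 01, its lowest LP hamster. Without it, SP-HT over LP-NT passed (log2(FC) -0.65, adjusted p = 0.0355 in edgeR), and SP-NT over LP-NT came to an adjusted p of 0.0819. This hamster also had the shortest effective length for *Nes*, 4547 bases against 4778 to 5280 bases in the other 11. Without SP-NT 19 the log2(FC) was -0.61 for photoperiod (adjusted p = 0.830 in edgeR) and 0.05 for torpor (adjusted p = 0.884 in edgeR).

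*Vim* encodes vimentin, which tanycytes share with ependymal cells, vessel walls and reactive astrocytes. It had 94.8, 124, 108 and 123 CPM in LP-NT 01, 02, 03 and 05, and 99.5, 95.1, 56.1 and 109 CPM in SP-NT 19, 36, 37 and 38. In SP-HT 02, 10, 26 and 33 it had 68.0, 87.1, 66.9 and 74.3 CPM. SP-HT lay wholly below LP-NT, whereas SP-NT overlapped with both, because SP-NT 37 had the lowest value of all 12 hamsters and the other 3 lay above every SP-HT hamster.

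*Vim* fell 1.52-fold from LP-NT to SP-HT, with a log2(FC) of -0.60 ± 0.109 (SE, n = 4 per group, adjusted p = 0.0293 in edgeR, 0.000103 in DESeq2). In the fit of all 12 hamsters together the adjusted p was 0.0639. Leaving out 1 hamster at a time, the call held without LP-NT 01 (0.0108) or SP-HT 10 (0.0396) and was lost in the other 6 cases, with adjusted p up to 0.104 and log2(FC) from -0.55 to -0.62. The log2(FC) was -0.32 ± 0.177 (SE) for photoperiod (adjusted p = 0.913, n = 4 per group, edgeR) and -0.28 ± 0.171 (SE) for torpor (adjusted p = 0.408, n = 4 per group, edgeR). Without SP-NT 37, torpor gave -0.45 with an adjusted p of 0.0484, and without SP-NT 19 it gave -0.23 with an adjusted p of 0.590. Photoperiod gave -0.37 without SP-NT 19 (adjusted p = 0.917, edgeR).

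**Figure D3:**
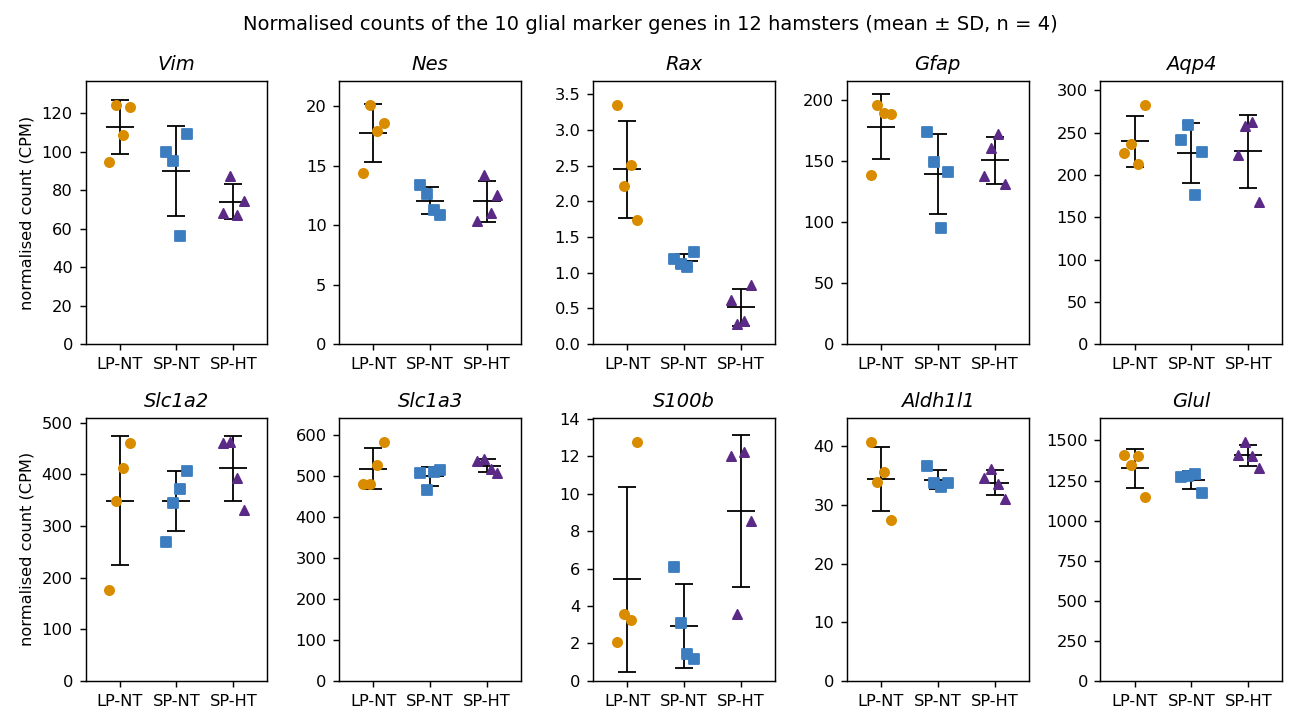
Normalised counts (CPM, linear axes from 0) of the 10 genes in the 12 hamsters, 1 point per hamster, with the mean and SD of each group (n = 4) in black. *Rax* steps down from LP-NT (1.74 to 3.35 CPM) through SP-NT to SP-HT (0.289 to 0.833 CPM), *Nes* is lower in both SP groups, and the astrocyte genes overlap between groups except *Glul* between SP-NT and SP-HT.

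Other genes of tanycytes gave a mixed picture. Of a list of 21 tanycyte genes, 3 beyond the trio could be named and are given here, *Dio2*, *Gpr50* and *Tshr*. *Gpr50*, an orphan relative of the melatonin receptors made by tanycytes, fell 3.57-fold from 17.5 ± 0.836 CPM in LP-NT to 4.90 ± 0.440 CPM in SP-NT (SD, n = 4 each, log2(FC) -1.84 ± 0.0978 (SE), adjusted p = 4.21e-05 in edgeR). It was at 5.65 ± 1.76 CPM (SD, n = 4) in SP-HT, lower than in LP-NT (adjusted p = 0.00768 in edgeR) with a log2(FC) of 0.21 ± 0.205 (SE) over SP-NT (adjusted p = 0.636, edgeR). Beside it, *Rax* and *Nes* had smaller log2(FC) for photoperiod, and of these 6 tanycyte genes *Rax* alone also had separate ranges in SP-NT and SP-HT.

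*Dio2*, the deiodinase that activates thyroid hormone, had 5.30 to 8.29 CPM in LP-NT, 4.76 to 6.17 CPM in SP-NT and 4.58 to 6.04 CPM in SP-HT. Its log2(FC) was -0.37 ± 0.157 (SE) for photoperiod (adjusted p = 0.913, n = 4 per group, edgeR) and -0.11 ± 0.139 (SE) for torpor (adjusted p = 0.724, n = 4 per group, edgeR). *Tshr*, the thyrotropin receptor, ranged from 4.75 to 7.26 CPM over the 12 hamsters, with overlap between all groups. Of the 6 named genes of the tanycyte list, 1 (*Gpr50*) passed for photoperiod, against 0.0370% of all genes in edgeR. For SP-HT against LP-NT 3 passed (*Rax*, *Vim* and *Gpr50*), against 1.37% of all genes. The 3 genes beyond the trio could be named only because values had been published for them. The unnamed genes of the list of 21 were not looked at, so these counts do not stand for the list.

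Of the 4 named peptide genes, only *Pomc* passed in edgeR, and only between SP-HT and LP-NT, where it was lower in SP-HT, as *Rax* and *Vim* were. *Pomc*, a peptide precursor made by arcuate neurons beside the tanycytes, fell from 33.4 ± 12.9 CPM in LP-NT to 12.2 ± 1.12 CPM in SP-HT (SD, n = 4 each, log2(FC) -1.44 ± 0.215 (SE), adjusted p = 0.0128 in edgeR), with 16.2 ± 3.63 CPM in SP-NT. For photoperiod its log2(FC) was -1.05 ± 0.246 (SE, n = 4 per group, adjusted p = 0.643 in edgeR, 0.0122 in DESeq2). For torpor it was -0.40 ± 0.151 (SE, n = 4 per group, adjusted p = 0.186 in edgeR). *Avp* had 232 ± 46.1, 228 ± 73.0 and 150 ± 48.8 CPM in LP-NT, SP-NT and SP-HT, and did not pass in any comparison. *Trh* and *Sst* stayed between 43.8 and 50.9 CPM in the means of all groups. For photoperiod, the log2(FC) was -0.03 for *Avp* and 0.10 for both *Trh* and *Sst*, opposite in sign to *Pomc* for the last 2. For SP-HT over LP-NT it was -0.63 for *Avp*, 0.01 for *Trh* and 0.06 for *Sst*. None of these genes was at 0 in any hamster, and the part of neurons in the values of *Rax*, *Nes* and *Vim* was not tested.

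*Gfap*, the intermediate filament of astrocytes, rises in reactive astrocytes and is also present in dorsal tanycytes. Its normalised counts were 138, 196, 189.6 and 189 CPM in LP-NT 01, 02, 03 and 05, and 173, 149, 94.8 and 141 CPM in SP-NT 19, 36, 37 and 38. In SP-HT 02, 10, 26 and 33 they were 137, 161, 172 and 131 CPM. In LP-NT 3 hamsters lay above every SP hamster, but LP-NT 01 lay within the SP range, and SP-NT 37 was the lowest of all, as for *Vim*.

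The log2(FC) of *Gfap* was -0.35 ± 0.168 (SE, 95% interval -0.73 to 0.02, adjusted p = 0.913, n = 4 per group, edgeR) for photoperiod, and -0.46 without LP-NT 01. It was 0.11 ± 0.153 (SE, 95% interval -0.23 to 0.44, adjusted p = 0.758, n = 4 per group, edgeR) for torpor, -0.04 without SP-NT 37 and 0.23 without SP-NT 19. For SP-HT over LP-NT it was -0.24 ± 0.122 (SE, adjusted p = 0.394, n = 4 per group, edgeR), and -0.35 with an adjusted p of 0.0926 without LP-NT 01.

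*Aqp4*, the water channel of astrocyte endfeet, had 226, 236, 213 and 283 CPM in LP-NT 01, 02, 03 and 05. It had 242, 259, 176 and 227 CPM in SP-NT 19, 36, 37 and 38, and 223, 258, 262 and 168 CPM in SP-HT 02, 10, 26 and 33. The groups overlapped throughout, and the spread within SP-HT (CV 19.0%) was wider than any gap between group means. All log2(FC) lay between -0.09 and 0.01, with a 95% interval of -0.35 to 0.18 for photoperiod and -0.30 to 0.32 for torpor. Without SP-NT 19 the torpor value was 0.05.

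*Slc1a2* carries most of the glutamate uptake of the forebrain. It had 176, 348, 413 and 460.4 CPM in LP-NT 01, 02, 03 and 05, and 269, 345, 371 and 407 CPM in SP-NT 19, 36, 37 and 38. In SP-HT 02, 10, 26 and 33 it had 461, 463, 392 and 330.3 CPM. LP-NT 01 was far below the rest of its group, and the groups overlapped. The log2(FC) was -0.01 ± 0.246 (SE) for photoperiod, with a 95% interval of -0.55 to 0.54, and 0.24 ± 0.132 (SE) for torpor (adjusted p = 0.360, n = 4 per group, edgeR). Without SP-NT 19 these were 0.10 and 0.14. The photoperiod value was -0.23 without LP-NT 01 and 0.16 without LP-NT 05. For SP-HT over LP-NT the log2(FC) was 0.24 ± 0.241 (SE, adjusted p = 0.692, n = 4 per group, edgeR).

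*Slc1a3*, the other glutamate transporter of glia, was among the steadiest of the 10. It ranged from 480.3 to 583 CPM in LP-NT, from 465 to 515 CPM in SP-NT and from 506 to 539.9 CPM in SP-HT. The log2(FC) was -0.06 ± 0.0722 (SE, 95% interval -0.22 to 0.11) for photoperiod and 0.07 ± 0.0467 (SE, 95% interval -0.03 to 0.18) for torpor. As ratios, these intervals run from 0.861 to 1.08 and from 0.979 to 1.13.

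*Glul* makes glutamine from the glutamate that these transporters take up. It had 1409, 1346, 1404 and 1149 CPM in LP-NT 01, 02, 03 and 05, and 1275, 1279, 1291 and 1171 CPM in SP-NT 19, 36, 37 and 38. In SP-HT 02, 10, 26 and 33 it had 1407, 1492, 1400.2 and 1329 CPM. All SP-HT hamsters lay above all SP-NT hamsters, while LP-NT overlapped with both groups.

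The difference of *Glul* in torpor was small, a ratio of 1.12 with a log2(FC) of 0.16 ± 0.0512 (SE, 95% interval 0.05 to 0.28, n = 4 per group). The adjusted p was 0.119 in edgeR, 0.0887 in limma voom and 0.0227 in DESeq2. Without SP-NT 38, the lowest hamster of its group, the log2(FC) was 0.14 (adjusted p = 0.256, edgeR), and without SP-NT 19 it was 0.18 (adjusted p = 0.197, edgeR). Photoperiod gave -0.08 ± 0.0733 (SE, adjusted p = 0.916, n = 4 per group, edgeR), and -0.05 without SP-NT 38.

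*S100b*, a calcium-binding protein of mature astrocytes, was the most variable of the astrocyte genes between hamsters of a group. Its normalised counts were 2.08, 3.60, 3.28 and 12.8 CPM in LP-NT 01, 02, 03 and 05. They were 6.08, 3.08, 1.42 and 1.17 CPM in SP-NT 19, 36, 37 and 38, and 11.99, 3.57, 12.2 and 8.53 CPM in SP-HT 02, 10, 26 and 33. In SP-HT 3 hamsters lay above every SP-NT hamster, but SP-HT 10 lay among them, and LP-NT 05 was higher than any SP-HT hamster.

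The log2(FC) of *S100b* in torpor was the largest of the 10, 1.63 ± 0.494 (SE, 95% interval 0.54 to 2.72), with an adjusted p of 0.113 in edgeR (n = 4 per group). Without SP-NT 19, the highest of its group, it was 2.26 with an adjusted p of 0.0564. Photoperiod gave -0.89 ± 0.626 (SE, adjusted p = 0.913, n = 4 per group, edgeR), -0.02 without LP-NT 05 and -1.52 without SP-NT 19. For SP-HT over LP-NT the log2(FC) was 0.75 ± 0.531 (SE, adjusted p = 0.559, n = 4 per group, edgeR), and 1.61 without LP-NT 05 (adjusted p = 0.102, edgeR). A single assembled transcript carries this gene, and 29 to 280 reads per hamster were assigned to it.

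*Aldh1l1*, a folate enzyme and a general marker of astrocytes across brain regions, had nearly the same level in all groups. It was at 34.5 ± 5.49 CPM in LP-NT, 34.3 ± 1.61 CPM in SP-NT and 33.8 ± 2.14 CPM in SP-HT (SD, n = 4 each). The log2(FC) was -0.01 ± 0.107 (SE, 95% interval -0.25 to 0.23) for photoperiod and -0.02 ± 0.0643 (SE, 95% interval -0.16 to 0.12) for torpor, and -0.04 and 0.01 without SP-NT 19. LP-NT held both its highest (40.8 CPM, LP-NT 01) and its lowest hamster (27.5 CPM, LP-NT 05).

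The genes did not rise and fall as 1 block across hamsters. LP-NT 02 had the highest value for *Vim*, *Nes* and *Gfap*, the 3 intermediate filament genes. SP-NT 37 had the lowest value for *Vim* and *Gfap* and the second lowest, at 176 CPM, for *Aqp4*, while its *Slc1a3*, *Aldh1l1* and *Glul* were within 0.1 log2 units of their means. LP-NT 05 had the highest *Aqp4*, *Slc1a3* and *S100b* together with the lowest *Aldh1l1* and *Glul*. LP-NT 01 combined the highest *Rax* with the lowest *Slc1a2*. These are descriptions of single animals, and no test was made of them.

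**Figure D4:**
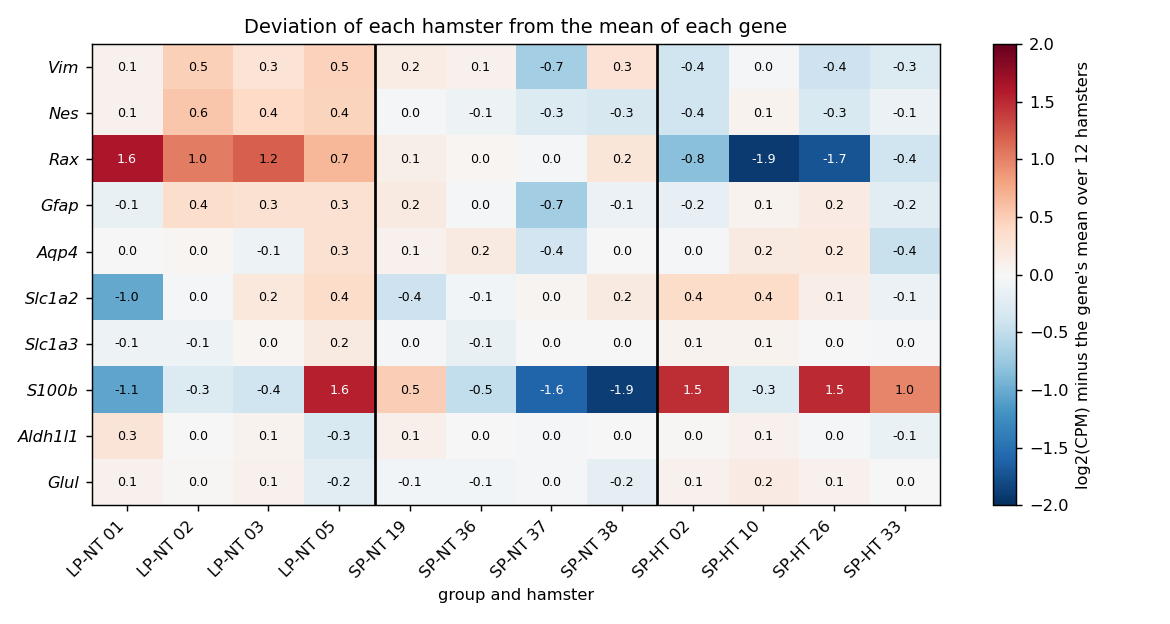
Deviation of each hamster (columns, grouped by LP-NT, SP-NT and SP-HT) from the mean of each gene over 12 hamsters, as log2(CPM), with the value in each cell rounded to 1 decimal. *Rax* is above its mean in all 4 LP-NT hamsters and below it in all 4 SP-HT hamsters, *S100b* varies in all 3 groups, and the rows of *Slc1a3*, *Aldh1l1* and *Glul* are close to 0.

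The choice of tool and of hamsters decided which of the tanycyte genes passed. *Rax* in SP-HT against LP-NT passed in 15 of 17 other settings and *Vim* in 10 of 17, while *Nes*, which did not pass in edgeR, passed in 4 of 17. For photoperiod, *Rax* passed in none of 18 other settings, with adjusted p from 0.0653 to 0.994, and *Nes* in 2 of 18. For torpor, *Rax* passed in 1 of 18, *Vim* in 1 and *Glul* in 1. No setting turned the sign of *Rax* or *Vim* in any comparison.

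**Figure D5:**
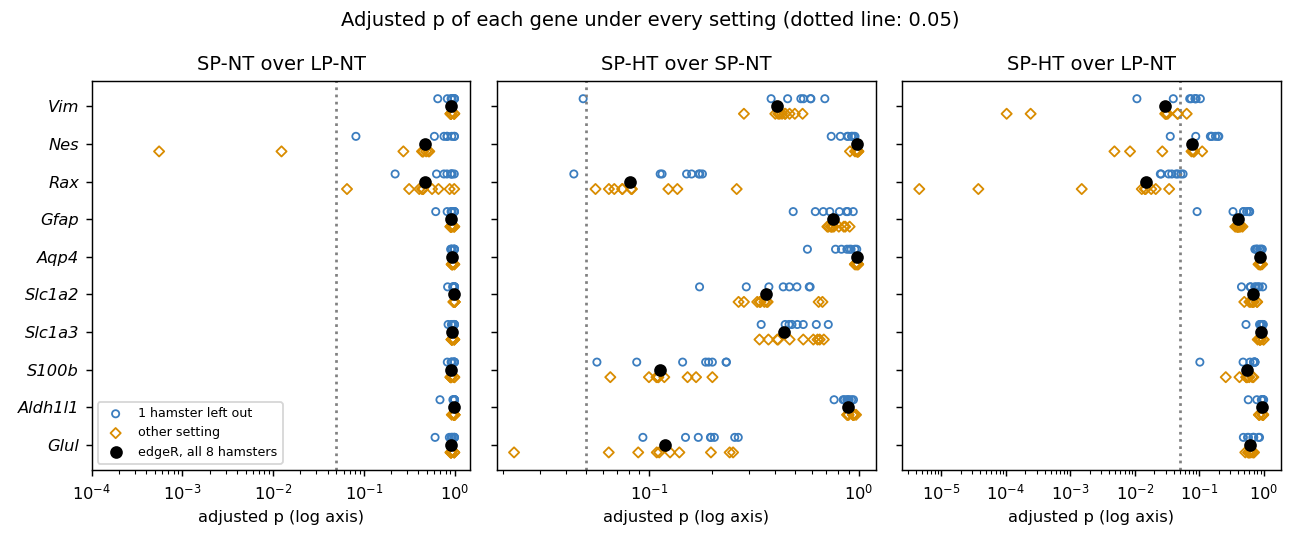
Adjusted p (log axis) of each gene in the 3 comparisons with edgeR and all 8 hamsters (black), with 1 hamster left out (blue circles) and with other tools, filters, scalings or covariates (orange diamonds), with a dotted line at 0.05. In the right panel *Rax* lies left of the line in all but 2 settings, and *Vim* and *Nes* fall on both sides of it.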

How the data were processed

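Hypothalamic poly(A) RNA of 12 Djungarian hamsters was sequenced. Per the methods, the authors pooled all reads into a Trinity assembly, kept transcripts with a mouse protein as best blastx hit, grouped them by mouse GeneID, mapped the reads of each sample back and quantified them with RSEM. The submitters' processing notes name FastQC 0.11.9, Trim Galore 0.6.6, Bowtie 1.3.0 and RSEM 1.3.1. The deposited values used here are estimated counts per GeneID (RSEM expected counts, not normalised), the deposited TPM, and effective lengths in bases. A GeneID can join isoforms and hamster paralogs with the same best hit.

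Expected counts were rounded to whole numbers, and GeneIDs that reached 10 counts in total within the 8 samples compared were tested with the quasi-likelihood test of edgeR 4.0.16 in R 4.3.3 (TMM, no covariates, Benjamini-Hochberg over all GeneIDs, threshold 0.05). Normalised counts (CPM) use TMM factors over all 12 samples. Confidence intervals of log2(FC) are at 95% and use edgeR's total degrees of freedom, prior ones included. The fits were tested on simulated data. Changes were put only into genes above a floor of mean counts, so the rates need not hold for genes with few reads. All counts were drawn with dispersions estimated by edgeR, also those given to the other tools. For photoperiod, torpor and SP-HT against LP-NT, edgeR recovered 59.7%, 70.1% and 56.7% of 1.5-fold changes and 100% of 4-fold changes. It made 10, 13 and 8 false calls, limma voom 10, 12 and 7, and DESeq2 36, 37 and 38. DESeq2 1.42.0 and limma 3.58.1 (voom) were alternatives, as were median-of-ratios factors, other count filters, 1 fit of all samples, sex as labelled, effective lengths as offset, and leaving out each hamster. DESeq2 with effective lengths, and sex as a covariate without SP-NT 19, were added after the data were seen.

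Groups were taken from the labels, and each library is 1 animal. The members and the gene lists were chosen with earlier results of these data known. All 10 members are named in every comparison, and other tanycyte or astrocyte genes where they pass in any, with the named rest of the tanycyte list and the 4 peptide genes given beside them. The files give no gene names. Members were found by GeneID. Other names came from values of a supplementary table of indicator genes that equal those of DESeq2 with effective lengths (59 of 61 matched 1 GeneID, *Vim* at the GeneID of the member). The sign of the torpor values was left out of this match, because in that table it is opposite to the direction of the labels. The labels were followed, and the difference was not resolved. For a matched gene this setting's value is no independent evidence. In this way 6 of 21 tanycyte genes, 7 of 26 astrocyte genes (the members) and 4 of 10 hypothalamic genes had names. Lists for ependymal cells, choroid plexus, neurons, oligodendrocytes, microglia, endothelium and pars tuberalis had 0 named genes and are not used here. 1 gene was taken out of the tanycyte list and is not reported here. No sequences are given.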

Additional observations from a re-analysis of the deposited data

Results flagged for a closer look

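In 3 of 39 sets of 4 hamsters (10 member genes and 3 other tanycyte genes in 3 groups), 1 hamster stood apart from the other 3 by Dixon's test at the 95% level. By chance about 1 in 20 sets does so. *Gfap* in LP-NT 01 was at 138 CPM, and the nearest LP-NT hamster was at 189 CPM. *S100b* in LP-NT 05 was at 12.8 CPM, and the nearest LP-NT hamster was at 3.60 CPM. *Glul* in SP-NT 38 was at 1171 CPM, and the nearest SP-NT hamster was at 1275 CPM. The values of each gene without that hamster stand beside its result.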

How the results depend on the processing

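Of 530 recalculated log2(FC) of the 10 member genes, 465 kept their sign and their side of the threshold, 9 newly passed, 9 no longer passed and 47 changed sign. The other tanycyte genes changed sign in 1 of 159. All 48 sign changes were of values near 0 that passed in no setting, with sizes up to 0.16. No call of the 3 comparisons reversed.

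Genes past the threshold numbered 6 for photoperiod, 389 for torpor and 221 for SP-HT against LP-NT. DESeq2 gave 33, 1017 and 706, and DESeq2 with effective lengths 32, 759 and 623. The share of higher genes was 16.7%, 21.1% and 25.8% in edgeR, 54.5%, 40.6% and 34.4% in DESeq2, and 46.9%, 39.9% and 39.0% in DESeq2 with effective lengths. The torpor shares follow the labels of SP-HT and SP-NT and would turn with them. Effective lengths as offset gave 146 for torpor and 102 for SP-HT against LP-NT, sex as labelled gave 242 for torpor, the same without SP-NT 19 gave 36 (33.3% higher), and the fit of all 12 hamsters gave 612 for SP-HT against LP-NT. Leaving out 1 hamster gave 5 to 8, 104 to 318 and 55 to 200. The torpor count fell by over 1.5 times without SP-NT 19 (124), 36 (179), 37 (258) or 38 (104) and SP-HT 02 (230), 10 (166) or 26 (170), and the SP-HT against LP-NT count without any hamster but LP-NT 01. For these 2 comparisons fewer hamsters entered each such fit. Of the 10 glial genes, 1 passed for photoperiod with either form of DESeq2 and 1 for torpor with DESeq2, and leaving out 1 hamster gave 0 to 0, 0 to 1 and 0 to 3. The causes were not tested.

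For photoperiod, *Aldh1l1* came to 0.0032 in the fit of all 12 hamsters, 0.00034 with sex, 0.0021 with sex and without SP-NT 19, 0.078 with effective lengths as offset, 0.0063 in limma voom and 0.078 in DESeq2 with effective lengths. *Slc1a2* came to 0.00029 in the fit of all 12, 0.010 with sex, 0.087 with sex and without SP-NT 19 and 0.065 in limma voom. For torpor, *Nes* came to 0.0035 in DESeq2, 0.0039 with median-of-ratios factors, 0.0054 in DESeq2 with effective lengths and 0.013 with sex and without SP-NT 19. *Aqp4* came to -0.0083 with sex and -0.0025 with effective lengths as offset, and *Aldh1l1* to 0.019 with sex and without SP-NT 19. For SP-HT against LP-NT, effective lengths as offset gave *Slc1a3* -0.0044 and *Aldh1l1* 0.069, and DESeq2 with effective lengths gave *Aldh1l1* 0.075.

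Leaving out 1 hamster, the photoperiod log2(FC) ranged from -0.10 to 0.085 for *Aldh1l1*, -0.23 to 0.16 for *Slc1a2*, -0.16 to 0.020 for *Aqp4* and -0.090 to 0.0075 for *Slc1a3*. For torpor the ranges were -0.094 to 0.062 for *Nes*, -0.091 to 0.13 for *Aqp4*, -0.053 to 0.019 for *Aldh1l1*, -0.039 to 0.23 for *Gfap* and -0.18 to 0.030 for *Tshr*. For SP-HT against LP-NT they were -0.013 to 0.090 for *Slc1a3*, -0.11 to 0.067 for *Aldh1l1* and -0.14 to 0.053 for *Aqp4*.

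No paired analysis was possible because the numbers are those of single animals, and the number 02, which LP-NT and SP-HT share, belongs to different hamsters. *Rax* had 6 to 74 reads per hamster, the fewest of the 10 genes. SP hamsters differed from LP hamsters in implant as well as photoperiod, and the sexes were not equally shared out in SP-HT.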
